A study of Canis lupus familiaris with 2 samples.

Results

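The hepatic and intestinal miRNAs of dog serum that were examined here are cfa-miR-122, cfa-miR-192, cfa-miR-194 and cfa-miR-215 (below without the species prefix), 4 of the 291 dog miRNAs on the array. They were taken by name, as every dog probe whose number is one of these, whatever its signal. Serum was compared between normal dogs and dystrophic dogs of the CXMD_J colony, which carries canine X-linked muscular dystrophy and serves as a model of Duchenne muscular dystrophy. All dogs were males at 2 months of age. Serum of 3 dogs was pooled for each condition, total RNA of each pool was labelled with Cy5, and each pool was read on 1 one-color 3D-Gene array. There is therefore no replicate, no error between dogs, and no test between the conditions, and the number of arrays limits the precision. In serum, a change in the number of cells that release a miRNA and a change in the amount released per cell cannot be told apart.

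miR-122 is the most abundant miRNA of hepatocytes, and it is used as a serum marker of liver injury. It is of interest in muscle disease because the aminotransferases that are usually measured for the liver are released by damaged muscle as well. miR-192, miR-194 and miR-215 are expressed in the epithelium of the intestine, in liver and in kidney. miR-192 and miR-215 share their seed, the stretch near the 5′ end that pairs with target mRNAs, and miR-194 is made from the same primary transcripts as these relatives. In the RefSeq gene table of the dog, MIR194 and MIR215 are direct neighbors inside the span of IARS2, which encodes the mitochondrial isoleucyl-tRNA synthetase. MIR192 lies apart from them in an uncharacterized non-coding transcript between ATG2A and EHD1. MIR122 lies between ALPK2 and NEDD4L.

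Each array carried 1 spot per dog miRNA and 1408 blank spots. With the 5% brightest and 5% dimmest left out, blank spots averaged 118 units in normal serum and 116 in dystrophic serum, with an SD of 3.94 and 4.12. A miRNA was taken as detected above that mean plus 2 SD, at 125.9 and 124.0 units. A normalized signal is the intensity less the mean blank spot, multiplied by 1 factor per array so that the detected dog miRNAs have a median of 25. On this scale the detection limit was 8.19 in normal and 6.81 in dystrophic serum.

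miR-192 and miR-122 were detected in both sera, and miR-194 and miR-215 in neither. Of all 291 dog miRNAs, 54.6% were detected in normal serum and 64.6% in dystrophic serum, with 48.8% detected in both and 29.6% in neither. The change in spot intensity from the normal to the dystrophic array was -0.66 units for miR-122, 1.19 for miR-192, 1.92 for miR-194 and -1.17 for miR-215. Among blank spots at the same position of both arrays, 92.0% changed by more than miR-122, 86.1% by more than miR-192, 77.6% by more than miR-194 and 86.4% by more than miR-215. The blank spots had a median change of -1.97 units. Counted from the mean blank spot of each array, the changes were 1.54 units for miR-122, 3.39 for miR-192, 4.13 for miR-194 and 1.03 for miR-215. That of miR-194 was just above 1 SD of the trimmed blank spots of either array, and the other 3 were below it. That SD is a spread within 1 array. The changes of the blank spots between the arrays had an SD of 9.76 units, and all 4 changes were below it. Of the 291 dog spots, 45 (15.5%) changed in intensity by no more than miR-194, the largest of the 4 changes. Since miR-194 sets this cut, the 4 miRNAs are among the 45 by construction. The interquartile range of the intensity change over all dog spots was -1.79 to 14.8 units.

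**Figure D1:**
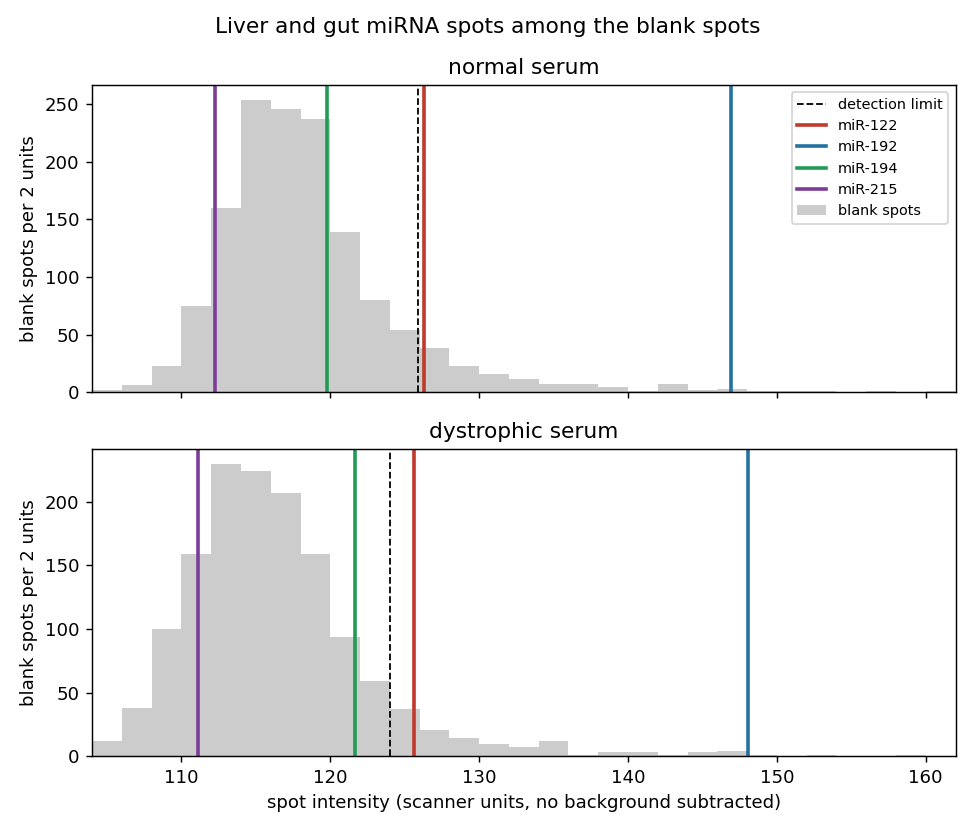
Distribution of the intensity of blank spots (gray bars, spots per 2 scanner units, with the brightest blank spots off the axis) on the array of normal serum (top) and dystrophic serum (bottom). Colored lines mark the single spot of each miRNA and the dashed line the detection limit; miR-192 lies at 146.9 and 148.1 units in the upper tail, miR-122 just above the limit, and miR-194 and miR-215 inside the bulk of the blank spots on both arrays.

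miR-192 was the brightest of the 4 on both arrays. Its spot read 146.9 in normal and 148.1 in dystrophic serum, 28.9 and 32.3 units above the mean blank spot. As few as 14 of the 1408 blank spots (0.994%) on the normal array and 6 (0.426%) on the dystrophic array were as bright. In its own block of the array, 0 and 1 of 44 blank spots reached it. Negative-control probes and positions without a probe came closer, since 4 and 2 of 32 negative-control spots, as well as 8 and 6 of 181 positions without a probe, reached its brightness. By spot intensity miR-192 ranked 71 of 291 in normal and 88 of 291 in dystrophic serum. The brightness of different probes does not give the relative amounts of their miRNAs.

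The normalized signal of miR-192 was 30.0 ± 7.72 in normal and 26.7 ± 6.11 in dystrophic serum. The error here is the SD of all blank spots, 7.27 and 7.19 units, combined with the 5.26% spread between spots of bright control probes, and it covers spot noise only. The dystrophic over normal ratio was 0.889, with a 95% spot-noise interval from 0.434 to 1.95. With the smaller SD of the trimmed blank spots it ran from 0.594 to 1.34. Both intervals include 1 and end below 2, and the wider one also includes 0.5. The side of 1 depended on the scaling, since without scaling the ratio was 1.12, and it was 1.15 when the arrays were scaled on their spike controls. Among the other miRNAs that were detected on both arrays, 43 lay lower and 98 higher, the median of all being 1.09.

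miR-122 stood at the edge of detection. Its spot read 126.3 in normal and 125.6 in dystrophic serum, 0.430 units above the limit of the normal array and 1.61 units above that of the dystrophic array. Above the mean blank spot it was 8.30 and 9.85 units, or 2.11 and 2.39 SD of the trimmed blank spots. Blank spots at least as bright were common, amounting to 121 (8.59%) in normal and 90 (6.39%) in dystrophic serum. Of 32 negative-control spots, 21 and 26 were at least as bright as miR-122, and so were 43 and 35 of the 181 positions without a probe. In its block 2 and 4 of 44 blank spots reached it. With a limit of 3 SD in place of 2 SD, miR-122 was detected in neither serum, and miR-192 was still detected in both. With the negative-control spots as background, a choice made after seeing the data, none of the 4 was detected in either serum.

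The normalized signal of miR-122 was 8.63 ± 7.57 in normal and 8.14 ± 5.96 in dystrophic serum, so that the error was almost as large as the signal. The ratio was 0.943, and its spot-noise interval had no limit on either side. With the SD of the trimmed blank spots, which is smaller, the interval ran from 0.151 to 14.8. Neither a rise nor a fall of serum miR-122 was measurable at this signal over background, and a change of several-fold in either direction could not be told from no change. Without scaling the ratio was 1.19, on the other side of 1. Relative to each other, the ratios of miR-192 and miR-122 differed by a factor of 0.942, which no scaling by a constant alters.

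Neither ratio passed the limits of above 2 or 0.5 and less. Over all miRNAs measured in both sera, 13.4% were above 2 and 5.63% at 0.5 or less, leaving 81% between these limits.

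**Figure D2:**
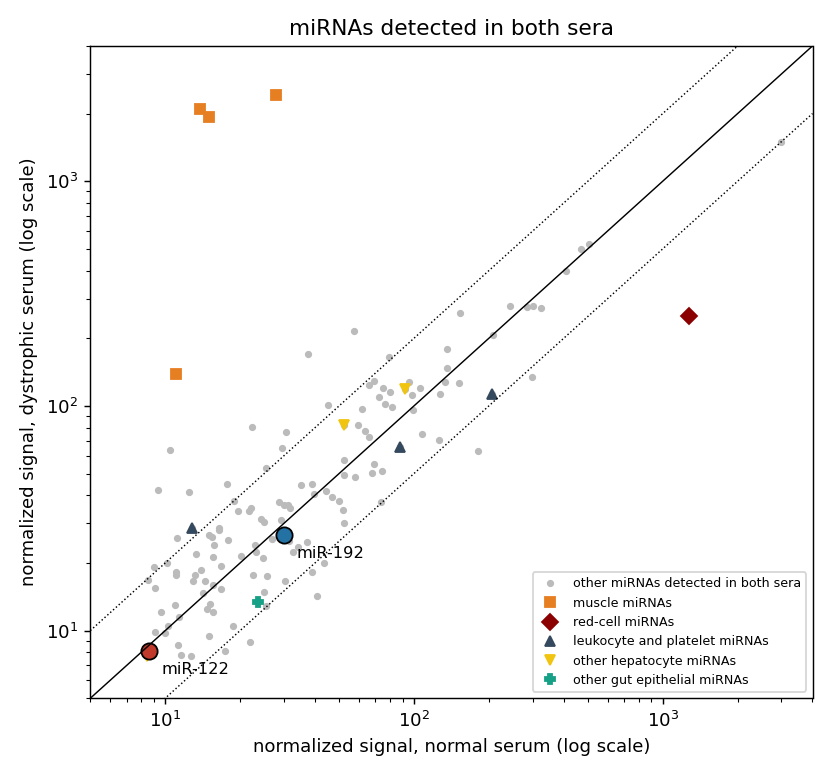
Normalized signal in dystrophic serum against normal serum, both on log scales, for the miRNAs detected in both (1 spot per array and no error bars). The solid line marks equal signals and the dotted lines ratios of 2 and 0.5; miR-192 and miR-122 lie next to the solid line, the point of miR-122 covers that of miR-148a, and the muscle miRNAs lie far above the upper dotted line.

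miR-194 was not detected. Its spot read 119.8 in normal and 121.7 in dystrophic serum, which is -6.12 and -2.35 units relative to the limit. On the normal array 427 blank spots (30.3%) were at least as bright, and on the dystrophic array 198 (14.1%) were. The blank spots of its own block gave another picture on the dystrophic array, where 0 of 44 were as bright, compared with 11 of 44 on the normal array. These block means were 118 and 114 units, with an SD of 4.37 and 3.30. When the limit was set from the blank spots of each block, miR-194 was detected in dystrophic serum, and it was still not detected in normal serum. No ratio is given, since its signal was below the limit on both arrays as reported.

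miR-215 was among the dimmest dog spots of both arrays. It read 112 and 111 units, -5.73 and -4.70 units relative to the mean blank spot, and just 9 dog spots in normal serum and 4 in dystrophic serum were dimmer. At least as bright were 91.7% and 83.3% of the blank spots and 31 and 32 of the 32 negative-control spots. miR-122 lies in the same block, where the mean blank spot was 116 and 117 units, and was 9.98 and 8.71 units above it, whereas miR-215 was at -4.05 and -5.83. The spot of miR-215 was thus no brighter than the blank spots of either array, while its seed relative miR-192 gave a signal on both.

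The miRNAs whose signals were nearest to those of miR-122 and miR-192 were found by the distance of log2 normalized signals over the 2 arrays. For miR-122 they were miR-148a at a distance of 0.08, let-7e at 0.29 and miR-10a at 0.33. miR-148a, which hepatocytes also express strongly, had a normalized signal of 8.46 and 7.74 in normal and dystrophic serum, and a ratio of 0.914. The spot-noise interval of this ratio had no limit on either side, as for miR-122. For miR-192 the nearest were miR-19b at 0.11, miR-30b at 0.17 and miR-631 at 0.22, with ratios of 0.797, 0.958 and 1.06. With 2 arrays, such nearness says only that 2 spots were alike in brightness.

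Of 6 other miRNAs listed as hepatocyte miRNAs, 4 were detected in normal and 3 in dystrophic serum, beside 54.6% and 64.6% of all dog miRNAs. None of the 3 detected in both passed either limit, and their median ratio was 1.30 beside 1.09 over all miRNAs so detected. The 3 include miR-148a, whose spot-noise interval had no limits. The brightest was miR-483, from an intron of the growth factor gene IGF2, with a normalized signal of 91.8 and 119 in normal and dystrophic serum and a ratio of 1.30 (spot-noise interval 1.03 to 1.66). miR-885 had 52.3 and 82.0, a ratio of 1.57 (1.13 to 2.32). These 2 ratios depended on the processing, running from 0.929 to 1.93 for miR-483 and from 0.936 to 2.06 for miR-885 over 17 alternatives, with 1 alternative below 1 for each. miR-33a and miR-33b, which sit in introns of the SREBF genes of lipid synthesis, were detected in neither serum. miR-101 was detected in normal serum alone, with a normalized signal of 12.9.

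Of 8 other miRNAs listed as gut epithelial, 2 were detected in normal, 4 in dystrophic and 1 in both sera. Over all 291 dog miRNAs these shares were 54.6%, 64.6% and 48.8%, so that more were detected in dystrophic serum in general. The limit was also passed by 21 of 32 negative-control spots in normal and 27 in dystrophic serum. The one detected in both sera was miR-203, an epithelial miRNA, with 23.6 and 13.5, a ratio of 0.570 and a spot-noise interval from 0.0711 to 1.84. miR-200a, miR-200c and miR-141, members of the epithelial miR-200 family, were detected in dystrophic serum alone, with normalized signals of 12.3, 38.8 and 7.04. In normal serum their signals were 5.08, 3.10 and 6.44. The spot of miR-141 hardly changed, at 124.2 units in normal and 124.3 in dystrophic serum. Its call rests on the difference between the limits of 125.9 and 124.0 units. miR-31 was detected in normal serum alone, with 8.37, at the edge of the limit of 8.19. The spots of miR-375, miR-429 and miR-200b were below the limit on both arrays, as those of miR-194 and miR-215 were.

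**Figure D3:**
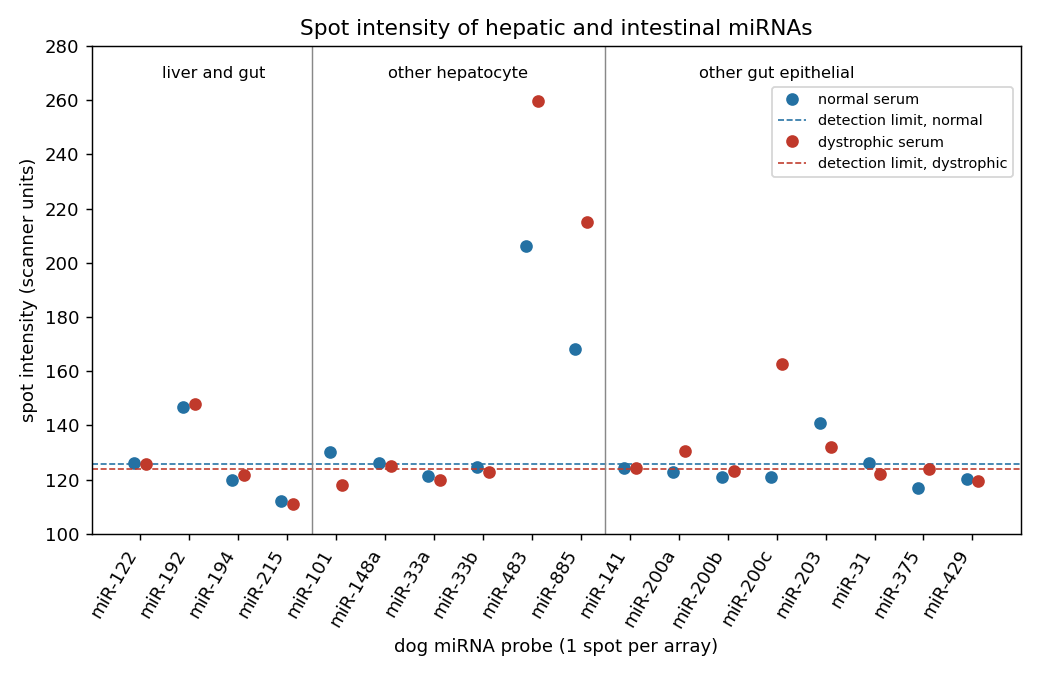
Spot intensity in scanner units on the array of normal serum (blue) and dystrophic serum (red) for the 4 liver and gut miRNAs, 6 other hepatocyte miRNAs and 8 other gut epithelial miRNAs, 1 spot each, with the detection limits as dashed lines. The blue and red points of miR-122, miR-192, miR-194 and miR-215 lie side by side, as do those of miR-148a, miR-141, miR-429 and others in the other lists. miR-483, miR-885 and miR-200c read higher on the dystrophic array, and miR-101 and miR-203 read lower.

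The same 2 arrays differed for miRNAs of other cells. All 4 of the muscle miRNAs detected in both sera, out of 8 listed, were above 2-fold, with a median ratio of 108 and a range from 12.6 for miR-206 to 152 for miR-133c. The size of these ratios is uncertain, since normal signals were as low as 11.0 for miR-206 and 13.8 for miR-133c. Their spot-noise intervals ran from 5.29 and 72.5 upward without limit. Those of miR-133a and miR-133b ran from 63.9 to 11131 and from 55.7 to 191. miR-1, a miRNA of skeletal and heart muscle, passed the limit in dystrophic serum alone, at a normalized 20.6. miR-499, encoded in a myosin heavy chain gene, was detected in normal serum alone, with 12.3. The heart-muscle miRNAs miR-208a and miR-208b were detected in neither serum. The red-cell miRNA miR-451 had normalized signals of 1276 and 250.0, a ratio of 0.196, while miR-144 of the same primary transcript was detected in neither serum. Of 4 leukocyte and platelet miRNAs, the 3 detected in both sera ran from 0.549 for miR-223 to 2.24 for miR-142. The spot-noise interval of miR-142 ran from 0.865 upward without limit and includes 1, and its ratio was above 2 in 7 of 12 alternatives, the lowest being 1.03. The part of these differences in the signals of the liver and gut miRNAs was not tested. Most of the muscle signal rests on 3 probes of the similar miR-133 sequences, so that the share of each is uncertain. With normexp on the local background around each spot, miR-451 was at 4.52, and miR-206, miR-133a and miR-133b were at 0.916, 0.551 and 0.850. The other muscle miRNA detected in both sera, miR-133c, was at 6.85 there, and above 2 in all 12 alternatives that gave its ratio. For miR-451 in normal serum that background read 1768, above its spot of 1345, and the cause of these changes was not tested. With normexp on the mean blank spot, chosen after seeing the data, these 4 ratios were 0.262, 2.96, 29.2 and 31.4.

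**Figure D4:**
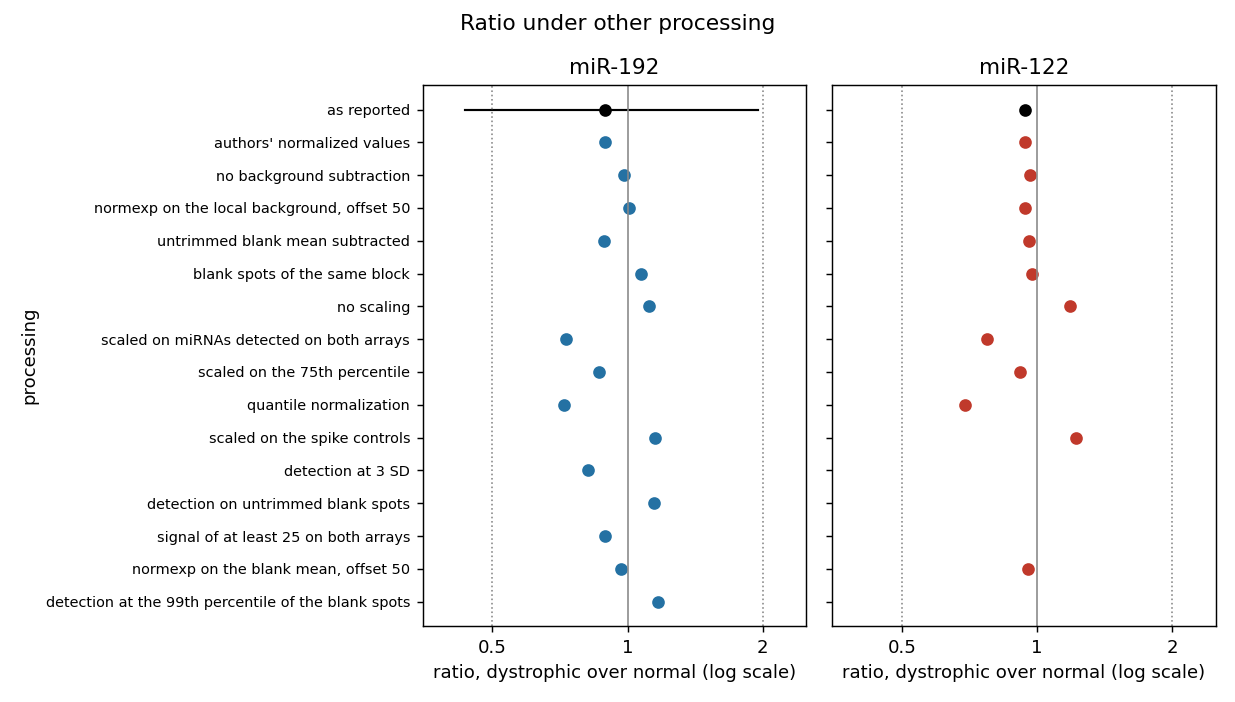
Dystrophic over normal ratio (log scale) of miR-192 (left) and miR-122 (right) as reported (black) and under each alternative processing that gave a ratio (colored), with the 95% spot-noise interval of the reported value as a line for miR-192; that of miR-122 has no limits and is not drawn. The solid gray line marks a ratio of 1 and the dotted lines 2 and 0.5; the points of both miRNAs lie between the dotted lines, on both sides of 1.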

How the data were processed

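Scanner files deposited by the authors give 1 median intensity per spot, not normalized, and a second file holds their normalized intensity values. The software was 3D-Gene Extraction, with settings not given in the sources used here. Signals recomputed from the scanner output differed from the deposited normalized intensity by at most 0.0491 and 0.0498 units, the rounding of that table, with the same detection for all 291 miRNAs. The number of trimmed blank spots was rounded up.

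Ratios are dystrophic over normal. The 95% interval follows Fieller's closed form, from the SD of all blank spots and the median CV of 10 control probes (8 spots each) at least 5 times the limit above background. No p-value was computed. The steps were tested on simulated data.

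All 4 miRNAs were named, with the 3 dog miRNAs nearest in signal to each detected one. List members were named with preference for those detected on both arrays, and others were chosen after their values were seen. The miRNAs, lists and 14 of the 17 alternatives were chosen with earlier results of these data known, and 3 alternatives after the files were read. Gene neighbors come from the RefSeq table of UU_Cfam_GSD_1.0, in which all 4 names matched. Mature sequences were not analysed here.

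Normexp (offset 50) was run in limma 3.58.1 under R 4.3.3, and the other steps in Python 3.11.15 with scipy 1.17.1, numpy 2.4.6, pandas 2.3.3 and matplotlib 3.10.9.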

Additional observations from a re-analysis of the deposited data

How the results depend on the processing

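Over 17 alternatives of background, scaling, detection and filter, miR-192 gave a ratio in 15 of them, from 0.723 with quantile normalization to 1.17 with detection at the 99th percentile of the blank spots. It was below 1 in 9 and above 1 in 6, all inside its spot-noise interval. miR-122 gave a ratio in 11, from 0.691 with quantile normalization to 1.22 with scaling on the spike controls, 9 of them below 1. In the other 6 it did not pass the limit, so the count leaves them out. Its signal there was higher in dystrophic serum with untrimmed blank spots and with the 99th percentile, and lower in the rest. No alternative put either of the ratios above 2 or at 0.5 or less. All alternatives reuse the same 1 spot per array, so this range does not cover spot noise. The spot-noise interval of miR-122 had no limit on either side. The median log2 ratio of all miRNAs detected in both sera moved by 0.33 without scaling, 0.38 with the spike controls, -0.28 with a scale set by the miRNAs found in both sera and -0.39 with quantile normalization. Above 2 and at 0.5 or less there were 19 and 8 miRNAs as reported, and 34 and 3, 39 and 3, 12 and 19, and 10 and 22 under these 4.

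The number of the 4 miRNAs detected changed with the limit. In normal serum and in dystrophic serum alike it went from 2 to 1 with detection at 3 SD, with untrimmed blank spots, with a floor of 25 for the normalized signal of each array and with the 99th percentile of the blank spots, where miR-192 alone was left. It went to 0 with the 32 negative-control spots as background and with local background subtraction, an alternative that left 21 dog miRNAs detected in both sera. The blank spots of each block gave 2 and 3. Negative controls, the 99th percentile and normexp on the mean blank spot were chosen after seeing the data. Other scanner gains were not run, because each spot has 1 intensity, and neither was leaving out an array. No paired analysis was possible because there was only 1 array for each condition. Signal over background limits miR-122, miR-194 and miR-215.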

Other observations

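For the 4 miRNAs, the intensity measured around the spots moved more between the arrays than the spots themselves. At the spot of miR-194 the local background went from 96.5 units on the normal to 80.5 on the dystrophic array, and the intensity above it from 23.3 to 41.2. At the spot of miR-122 it went from 87.7 to 99.4, and the intensity above it from 38.6 to 26.3. At the spot of miR-192 it was 105 and 102, leaving 41.9 and 45.9, and at that of miR-215 it was 90.4 and 83.6, leaving 21.9 and 27.5. After this subtraction none of the 4 passed a limit set in the same way from the blank spots.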
